A study of Mus musculus with 15 samples.

Results

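Isg15, Ifit1, Ifit3, Oasl2, Irf7, Usp18, Rsad2, Zbp1, Rtp4 and Ddx60 are 10 mouse genes whose transcription is induced by interferon, and they were taken by their symbols from the processed ileum RNA-seq values of 15 mice. They make up 10 of the 17752 genes listed in at least 1 mouse. Each of the 10 was listed in all 15 mice and passed the filter on low counts, which kept 14386 genes for testing.

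The mice were female, 8 weeks of age and C57BL/6 by the labels, in 3 groups of 5. The methods name the substrain C57BL/6JOlaHsd. Proanthocyanidins (PAC) are plant polymers of flavan-3-ol units, and their chain length is given as the mean degree of polymerization (mDP). One group was gavaged with water, one with a low mDP PAC fraction of grape pomace and one with a fraction that the sample labels call high molecular weight PAC. Here that group is called medium mDP PAC after the methods, because both sources have the same number of groups and mice, but the labels give no mDP. Both fractions were given at 200 mg/kg body weight every 2 days over 10 days to healthy animals, and RNA of 1 piece of ileum was sequenced per mouse. The labels name intestinal tissue and the study's methods name ileum. The ileal genes Fabp6, a bile acid binding protein, and Slc10a2, the apical bile acid transporter, had mean FPKM of 6830 and 244.

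Type I and type III interferons bind receptors at the cell surface and activate the kinases Jak1 and Tyk2. A complex that holds Stat2 and Irf9 then binds the interferon-stimulated response element in promoters and switches on the interferon-stimulated genes, whose products block viral replication or adjust the response itself. In the healthy intestine such genes are transcribed at a low level that depends on microbial and viral stimuli, and type III interferon acts mainly on the epithelium.

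A sequence match to the response element was found in 5 of these 10 genes, of which 7 could be searched. Promoter windows of the RefSeq annotation of GRCm38.p6, which run from 250 bases before to 50 bases after the annotated gene start, were matched for 7 of the 10 genes. The core of the element was searched on both strands as GAAA, 2 bases of any kind and GAAA again. It was found in the windows of Isg15, Ifit1, Ifit3, Rsad2 and Ddx60, against 3.44% of all 32851 windows, and these letters were absent from the windows of Oasl2 and Irf7. Usp18, Zbp1 and Rtp4 were not matched. The gamma activation site, searched on both strands as TTC, 3 bases of any kind and GAA, was in 0 of the 7 windows and in 8.3% of all windows. The stretches that hold the matches are printed below in the direction of transcription to show how close they lie to the gene start and that 4 of the 5 genes carry more than 1. Capitals mark bases inside a match, and TTTC, 2 bases and TTTC is the same motif read on the other strand.
Isg15, chr4:156200855-156200916, minus strand: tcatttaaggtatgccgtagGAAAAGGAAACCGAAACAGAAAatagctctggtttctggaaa
Ifit1, chr19:34640765-34640833, plus strand: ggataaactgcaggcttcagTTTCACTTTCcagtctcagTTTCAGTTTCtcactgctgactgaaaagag
Ifit3, chr19:34583353-34583436, plus strand: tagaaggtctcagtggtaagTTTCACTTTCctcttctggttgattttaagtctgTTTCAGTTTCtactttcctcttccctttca
Rsad2, chr12:26456543-26456592, minus strand: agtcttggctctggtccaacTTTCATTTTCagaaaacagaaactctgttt
Ddx60, chr8:61928014-61928086, plus strand: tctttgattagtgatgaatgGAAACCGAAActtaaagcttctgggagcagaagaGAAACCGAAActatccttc

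In Isg15 the 3 matches overlap and start 78, 72 and 66 bases upstream of the gene start. Those of Ddx60 start 53 and 19 bases upstream, those of Ifit1 104 and 85 bases, those of Ifit3 156 and 122 bases and that of Rsad2 120 bases upstream. A match is a description of the sequence and does not show binding.

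The levels are given as FPKM, the fragments of a gene divided by transcript length and by the size of the library, which can be compared between genes. Differences between groups were tested on the expected counts, the estimated read pairs per gene, with the quasi-likelihood test of edgeR in 1 model of all 15 mice, and a gene was called at a Benjamini-Hochberg adjusted p under 0.05 over the 14386 genes. The 2 comparisons with water share the water mice, so their values are not independent of each other. Totals of expected counts were between 15963086 and 17903886 per mouse, and the FPKM of all genes summed to between 502110 and 573980 in 14 mice and to 677075 in medium mDP PAC mouse 3. The lowest count of any of the 10 genes in a mouse was 39, in Usp18, and the highest was 2058, in Oasl2. In RNA from a whole piece of tissue, fewer cells of a type and less RNA per cell cannot be told apart.

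None of the 10 genes passed the adjusted test between any 2 groups, and the ranges of all 10 overlapped between the groups. By mean FPKM they followed the order Irf7, Oasl2, Ifit1, Rtp4, Zbp1, Isg15, Ddx60, Ifit3, Rsad2 and Usp18, and the group means ran from 45.6 for Irf7 in water to 1.95 for Usp18 in low mDP PAC. The ranges over the 15 mice of every pair of neighbours in this order overlapped. The highest mouse exceeded the lowest by 1.88 times for Irf7 and by 3.61 times for Ifit1, with the other 8 genes between. The group explained between 1.82% (Rsad2) and 20.1% (Ddx60) of the variance of log2(FPKM + 0.1).

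**Figure D1:**
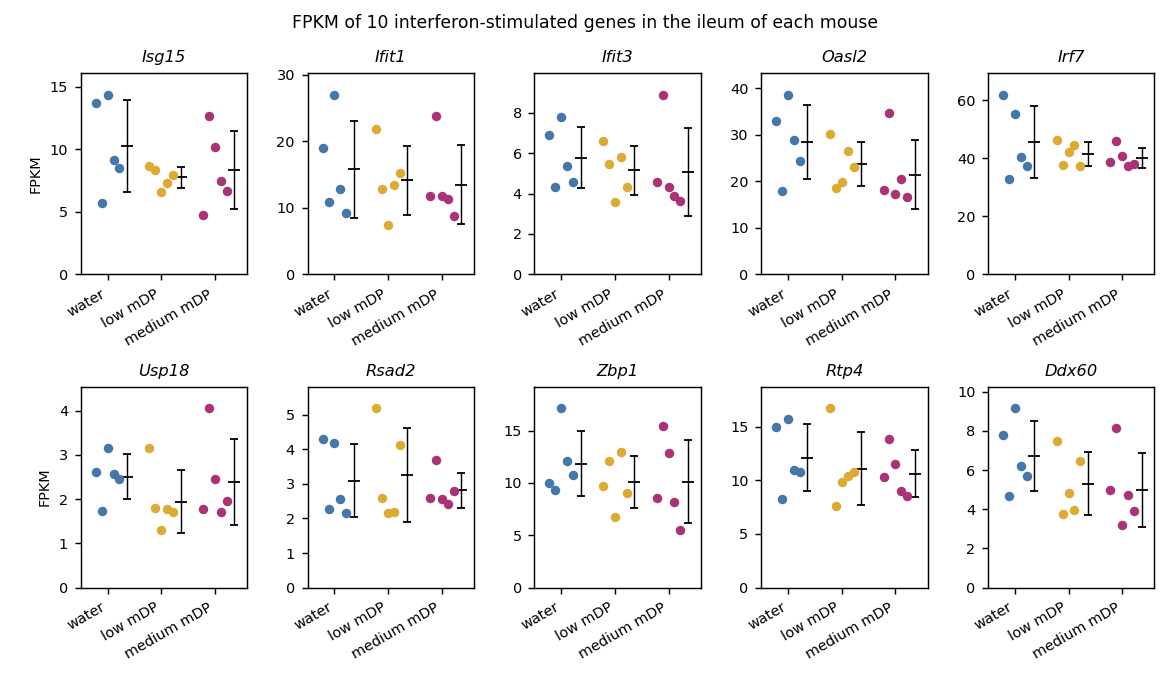
FPKM of the 10 genes in each mouse, 1 panel per gene, with a point for each mouse in the order of its number and a bar for the mean ± SD of the 5 mice of a group. In every panel the points of the 3 groups overlap, and medium mDP PAC mouse 2 is the highest of its group for all 10 genes.

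Isg15 encodes a ubiquitin-like protein that is joined to other proteins during the interferon response, and Usp18 encodes the protease that removes it and also damps signalling at the type I receptor. Isg15 (chr4:156199424-156200818, minus strand, GRCm38) had FPKM of 13.7, 5.70, 14.4, 9.14 and 8.50 in water mice 1 to 5, of 8.64, 8.39, 6.58, 7.33 and 7.95 in low mDP PAC mice 1 to 5, and of 4.75, 12.7, 10.2, 7.51 and 6.69 in medium mDP PAC mice 1 to 5. The water and medium mDP PAC mice were spread over the whole range, and the low mDP PAC mice lay close together inside it. Group means were 10.3 ± 3.67, 7.78 ± 0.834 and 8.37 ± 3.11 (SD, n = 5 each). The log2 fold change against water was -0.46 (SE 0.27) in low mDP PAC and -0.40 (SE 0.27) in medium mDP PAC, with edgeR adjusted p of 0.976 and 0.484.

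Usp18 (chr6:121245906-121270917, plus strand) had FPKM of 2.62, 1.74, 3.16, 2.57 and 2.46 in the water mice, of 3.15, 1.81, 1.3, 1.77 and 1.71 in the low mDP PAC mice and of 1.77, 4.06, 2.46, 1.72 and 1.96 in the medium mDP PAC mice, in the same order of numbers. Single mice stood above the others, namely mouse 1 in low mDP PAC and mouse 2 in medium mDP PAC, and the groups overlapped. The log2 fold change against water was -0.43 (SE 0.27) in low mDP PAC and -0.16 (SE 0.27) in medium mDP PAC, with edgeR adjusted p of 0.976 and 0.790. An exon of Usp18 overlaps Gm44148 on the opposite strand, and the sources used here do not state whether counting used strand.

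The next genes encode effectors that act on viral RNA or on the membranes viruses use. Ifit1 binds viral RNA that lacks host cap methylation and Ifit3 is its partner. Oasl2 belongs to the oligoadenylate synthetase family. Rsad2, also called viperin, is an enzyme that makes a chain-terminating nucleotide.

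Ifit1 (chr19:34640871-34650009, plus strand) had FPKM of 19.0, 10.9, 27.0, 12.8 and 9.29 in the water mice, of 21.9, 12.8, 7.48, 13.5 and 15.3 in the low mDP PAC mice and of 11.8, 23.8, 11.8, 11.4 and 8.82 in the medium mDP PAC mice. Ifit3 (chr19:34583531-34588731, plus strand) had 6.88, 4.33, 7.79, 5.34 and 4.56 FPKM in water, 6.59, 5.44, 3.56, 5.81 and 4.33 in low mDP PAC and 4.57, 8.89, 4.31, 3.89 and 3.65 in medium mDP PAC. The same 4 mice were the highest for both genes, water mice 1 and 3, low mDP PAC mouse 1 and medium mDP PAC mouse 2. For Ifit1 the log2 fold change against water was -0.23 (SE 0.33) in low mDP PAC and -0.33 (SE 0.33) in medium mDP PAC, the widest errors of the 10 genes. For Ifit3 the values were -0.23 and -0.29 (SE 0.26 each), and the edgeR adjusted p of both genes was 0.976 in low mDP PAC and 0.637 and 0.587 in medium mDP PAC. When single mice were left out, the medium mDP PAC value of Ifit1 ran from -0.65 (medium mDP PAC mouse 2) to -0.04 (water mouse 3).

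Part of the reads of these genes may belong to copies. The transcripts of Ifit3 and Ifit3b, a neighbouring gene, were identical at 98.0% of 1697 aligned bases, and the expected count of Ifit3 was a whole number in only 1 of 15 mice and that of Ifit1 in 3, as where reads are divided between genes. Reads of Ifit3 cannot be told apart with certainty from those of Ifit3b, which had group means of 1.85, 1.60 and 1.46 FPKM in water, low mDP PAC and medium mDP PAC. Ifit1 and Ifit1bl1 were identical at 78.1% of their aligned bases.

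Oasl2 (chr5:114896936-114912234, plus strand) had FPKM of 32.96, 17.9, 38.6, 28.9 and 24.4 in the water mice, of 30.1, 18.7, 19.9, 26.6 and 23.04 in the low mDP PAC mice and of 18.2, 34.6, 17.4, 20.5 and 16.7 in the medium mDP PAC mice. Of the medium mDP PAC mice 4 lay between 16.7 and 20.5, of which 2 were below the lowest water mouse, and the fifth, mouse 2, was above all but 1 of the water mice. Oasl2 was the 1 gene of the 10 with an unadjusted p under 0.05 in any comparison. Its log2 fold change in medium mDP PAC against water was -0.51 (SE 0.23, 95% confidence interval -1.0 to -0.03) with an edgeR adjusted p of 0.318, and the two-sided exact permutation test gave p = 0.167. In low mDP PAC it was -0.34 (SE 0.23, edgeR adjusted p = 0.976). Without medium mDP PAC mouse 2 the value in medium mDP PAC was -0.77, with an edgeR adjusted p of 0.158. Without water mouse 3 it was -0.37, with an edgeR adjusted p of 0.533.

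Rsad2 (chr12:26442746-26456452, minus strand) had FPKM of 4.31, 2.26, 4.18, 2.55 and 2.16 in the water mice, of 5.19, 2.58, 2.17, 2.18 and 4.13 in the low mDP PAC mice and of 2.6, 3.69, 2.56, 2.42 and 2.79 in the medium mDP PAC mice. Low mDP PAC mice 1 and 5 were among its 4 highest, and it was the gene with the least variance between groups. Its log2 fold change was 0.00 in low mDP PAC against water (SE 0.27, 95% confidence interval -0.57 to 0.57) and -0.24 (SE 0.27) in medium mDP PAC, with edgeR adjusted p of 1.00 and 0.673. The sign of the low mDP PAC value turned when single mice were left out.

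Zbp1 and Ddx60 sense nucleic acids. Zbp1 binds Z-form RNA and DNA and can start necroptosis, and Ddx60 is a helicase linked to the RIG-I pathway. Zbp1 (chr2:173206612-173218923, minus strand) had FPKM of 9.97, 9.32, 17.1, 12.1 and 10.72 in the water mice, of 9.70, 12.1, 6.70, 13.0 and 9.04 in the low mDP PAC mice and of 8.58, 15.5, 12.9, 8.20 and 5.55 in the medium mDP PAC mice. Water mouse 1 and low mDP PAC mouse 1, which were high for most of the other genes, were in the middle of its range. The log2 fold change against water was -0.23 (SE 0.26) in low mDP PAC and -0.32 (SE 0.26) in medium mDP PAC, with edgeR adjusted p of 0.976 and 0.548.

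Ddx60 (chr8:61928087-62038244, plus strand) had FPKM of 7.80, 4.68, 9.16, 6.22 and 5.72 in the water mice, of 7.47, 3.78, 4.83, 3.97 and 6.47 in the low mDP PAC mice and of 4.96, 8.14, 3.20, 4.72 and 3.9 in the medium mDP PAC mice. In each PAC group 2 mice were below the lowest water mouse and none was above the highest. It had the largest fitted difference of the 10 genes in medium mDP PAC against water, a log2 fold change of -0.53 (SE 0.26, 95% confidence interval -1.07 to 0.02) with an edgeR adjusted p of 0.351 and p = 0.143 in the exact permutation test. In low mDP PAC the value was -0.41 (SE 0.26, edgeR adjusted p = 0.976).

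Irf7 is the transcription factor that amplifies type I interferon production, and Rtp4 is a receptor transporting protein that is also induced by interferon. Irf7 (chr7:141262706-141266481, minus strand) had FPKM of 61.9, 32.9, 55.2, 40.4 and 37.3 in the water mice, of 46.5, 37.7, 42.0, 44.8 and 37.3 in the low mDP PAC mice and of 38.8, 45.9, 41.0, 37.3 and 38.1 in the medium mDP PAC mice. Water mice 1 and 3 stood above all others, water mouse 2 was the lowest of the 15, and both PAC groups lay within the range of water. The log2 fold change against water was -0.19 in low mDP PAC and -0.28 in medium mDP PAC (SE 0.15 each), with edgeR adjusted p of 0.976 and 0.392. Exons of Irf7 and Phrf1 overlap on opposite strands.

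Rtp4 (chr16:23520291-23614222, plus strand) had FPKM of 14.9, 8.27, 15.7, 10.9 and 10.77 in the water mice, of 16.7, 7.62, 9.88, 10.4 and 10.77 in the low mDP PAC mice and of 10.3, 13.9, 11.5, 8.98 and 8.52 in the medium mDP PAC mice. Its highest and its lowest mouse were both in the low mDP PAC group. The log2 fold change against water was -0.20 in low mDP PAC and -0.29 in medium mDP PAC (SE 0.21 each), with edgeR adjusted p of 0.976 and 0.505. Exons of Rtp4 overlap Gm45338 on the same strand, so its reads can be shared with that transcript.

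In medium mDP PAC against water, 0 of the 10 genes were called at the adjusted threshold, where 0.0139% of all tested genes were, and 1 (Oasl2) had an unadjusted p under 0.05, where 14.8% of all genes had one. DESeq2 gave 0 and 2 for the same counts, and without single mice the unadjusted count was between 0 and 4. All 10 fitted log2 fold changes were below 0, with a median of -0.31, while 49.5% of all tested genes were below 0 and their median was 0.002. The median of the 10 was -0.57 without medium mDP PAC mouse 2 and -0.16 without water mouse 3. The direction of the 10 does not come from 10 separate observations, because the genes moved together between mice. The 2 groups overlapped in FPKM for all 10 genes, where 4.64% of all genes had groups that did not overlap.

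In low mDP PAC against water, 0 of the 10 genes had an adjusted or an unadjusted p under 0.05 (0% and 3.61% of all genes, and 2.21% unadjusted and lower), by edgeR and by DESeq2. The log2 fold change was below 0 for 9 of the 10 with a median of -0.23, where 54.5% of all genes were below 0. This median was -0.10 without water mouse 3, -0.35 without water mouse 5 and -0.41 without low mDP PAC mouse 1. The groups overlapped for all 10 genes, and 0.605% of all genes had groups that did not overlap.

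The low and medium mDP fractions, which differ in mean chain length and were given at the same dose and times, were compared directly. None of the 10 genes was called between them by edgeR (0% of all genes adjusted, 3.89% unadjusted, 2.05% unadjusted and lower), the smallest adjusted p was 0.908, and DESeq2 also gave 0 for both counts. The log2 difference of medium minus low mDP PAC was between -0.24 for Rsad2 and 0.26 for Usp18, was below 0 for 8 genes (48.6% of all genes) and had a median of -0.10, which ran from -0.34 without medium mDP PAC mouse 2 to 0.03 without low mDP PAC mouse 1. The groups overlapped for all 10 genes, where 0.737% of all genes did not overlap. The 95% confidence intervals reached from -0.81 to 0.61 for Ifit1, the widest, and from -0.42 to 0.24 for Irf7, the narrowest, so differences of these sizes are not excluded. Over the 30 exact permutation tests of the 3 comparisons the smallest p was 0.143, where 252 splits of 10 mice allow 0.0079.

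**Figure D2:**
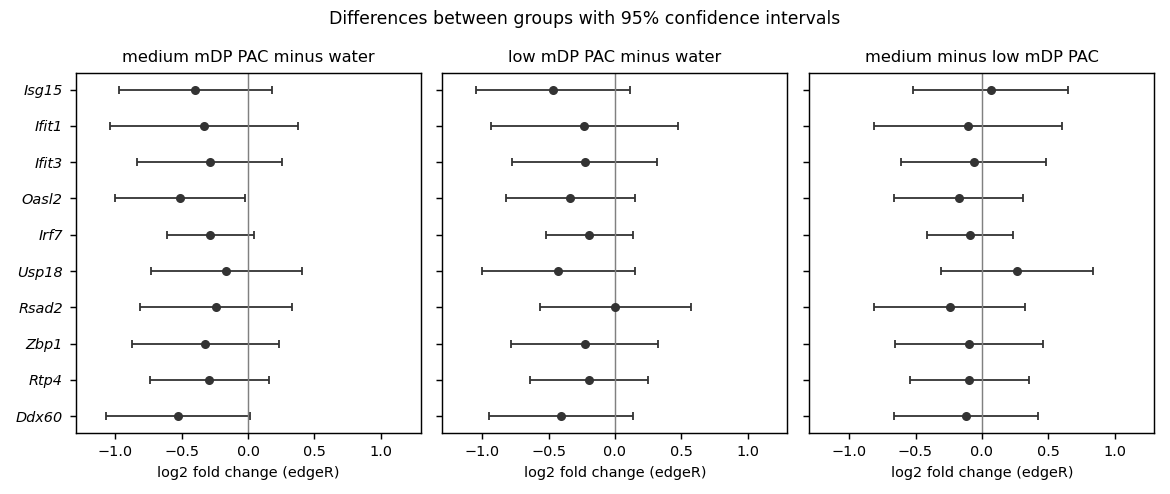
Fitted log2 fold changes of the 10 genes with 95% confidence intervals from edgeR in the 3 comparisons, on a common axis, with a line at 0. All 10 points lie left of 0 for medium mDP PAC minus water, 9 for low mDP PAC minus water and 8 for medium minus low mDP PAC, and of the 30 intervals 1 does not include 0, that of Oasl2 in medium mDP PAC minus water.

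While no difference between groups was called, the 10 genes varied together from mouse to mouse. With the group means of log2(FPKM + 0.1) subtracted, the 45 pairs of genes had a median Pearson's r of 0.716 across the 15 mice, from 0.224 to 0.909, and a median Spearman's rho of 0.689, from 0.175 to 0.921. All 45 were above 0. By permutation of the mice, adjusted over the 45 pairs by Benjamini-Hochberg, 40 passed 0.05 for r, 36 for rho and 35 for both. The values of all 15 mice were permuted after the group means were subtracted, which makes these p somewhat too small. Pairs near 0.05 are therefore uncertain.

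Ifit1 and Ifit3 were the closest pair, with r = 0.909 and rho = 0.921 (permutation p = 2e-05 for each, adjusted 0.0006 and 0.0009). Without water mouse 3 and medium mDP PAC mouse 2, which lay farthest from the median of Ifit1, r was 0.858. Both genes lie on chromosome 19, and their transcripts are identical at 67.4% of 795 aligned bases, and the part of shared reads in this value was not tested. Oasl2 with Ifit3 (r = 0.866) and Usp18 with Ifit3 (r = 0.860) came next, each with an adjusted permutation p of 0.0006.

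Of the 5 pairs that did not pass for r, 4 held Zbp1. These were its pairs with Rsad2 (r = 0.224, permutation p = 0.417), Ddx60 (r = 0.262, permutation p = 0.342), Irf7 (r = 0.355, permutation p = 0.194) and Rtp4 (r = 0.433, permutation p = 0.107). The other was Ddx60 with Isg15 (r = 0.523, adjusted permutation p = 0.051). The 9 pairs of Zbp1 had a median r of 0.586, and the other 36 pairs a median of 0.756. Against the mean of the other 9 genes Zbp1 had the lowest r of the 10 (0.590), but by rank its rho of 0.664 was above those of Rsad2 (0.604) and Ddx60 (0.586). Zbp1 did go with Ifit3 (r = 0.754) and Ifit1 (r = 0.670), with adjusted permutation p of 0.0025 and 0.0093.

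**Figure D3:**
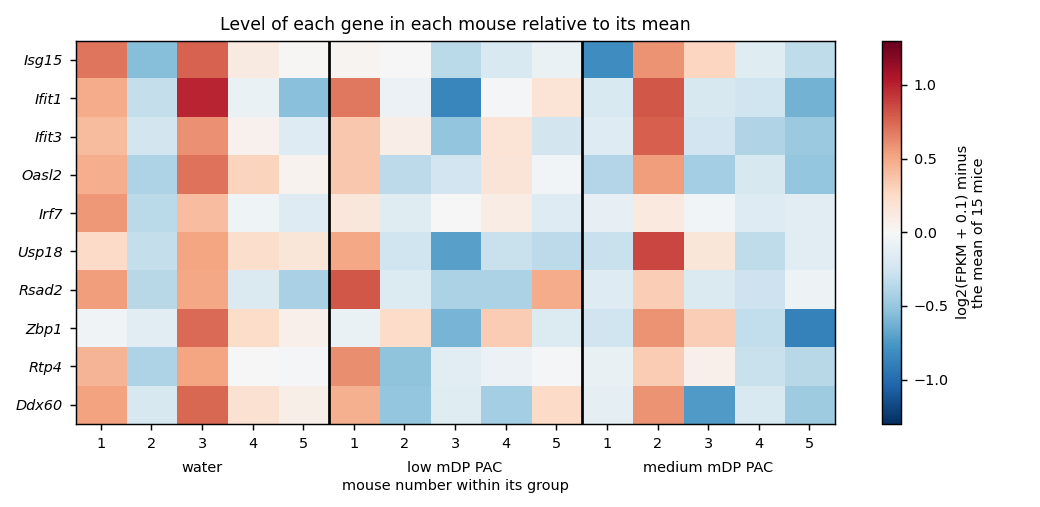
Level of each of the 10 genes in each of the 15 mice, as log2(FPKM + 0.1) minus the mean of the gene over all mice, with mice in columns by group and number and genes in rows. Water mice 1 and 3, low mDP PAC mouse 1 and medium mDP PAC mouse 2 are red for nearly every gene, and Zbp1 departs from this in water mouse 1 and low mDP PAC mouse 1.

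The mean log2(FPKM + 0.1) of the 10 genes was 3.78 in water mouse 3, 3.69 in medium mDP PAC mouse 2, 3.57 in water mouse 1 and 3.52 in low mDP PAC mouse 1. A gap of 0.309, the widest between neighbouring mice, separated them from the other 11 mice, which lay between 2.73 and 3.21. The next widest gap was 0.119 and the whole range 1.05. These 4 mice came from all 3 groups, and they were also the 4 highest mice for 7 of the 10 single genes. Group means of this measure were 3.28 ± 0.394 in water, 3.08 ± 0.287 in low mDP PAC and 3.04 ± 0.376 in medium mDP PAC (SD, n = 5 each).

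Without any single mouse the median r of the 45 pairs stayed between 0.659 and 0.760, the lowest without medium mDP PAC mouse 2. Leaving out for each pair the 2 mice farthest from the median of one gene gave a median r of 0.618, from -0.313 for Ddx60 with Zbp1 to 0.858 for Ifit1 with Ifit3, with 44 pairs above 0. In the 11 mice below the gap, a division made after the values were seen that narrows the range of these same genes and so lowers r by construction, the median r was 0.341, the lowest -0.413, and 36 pairs were above 0. The pairs of Zbp1 and the other pairs had medians of 0.350 and 0.338 there.

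**Figure D4:**
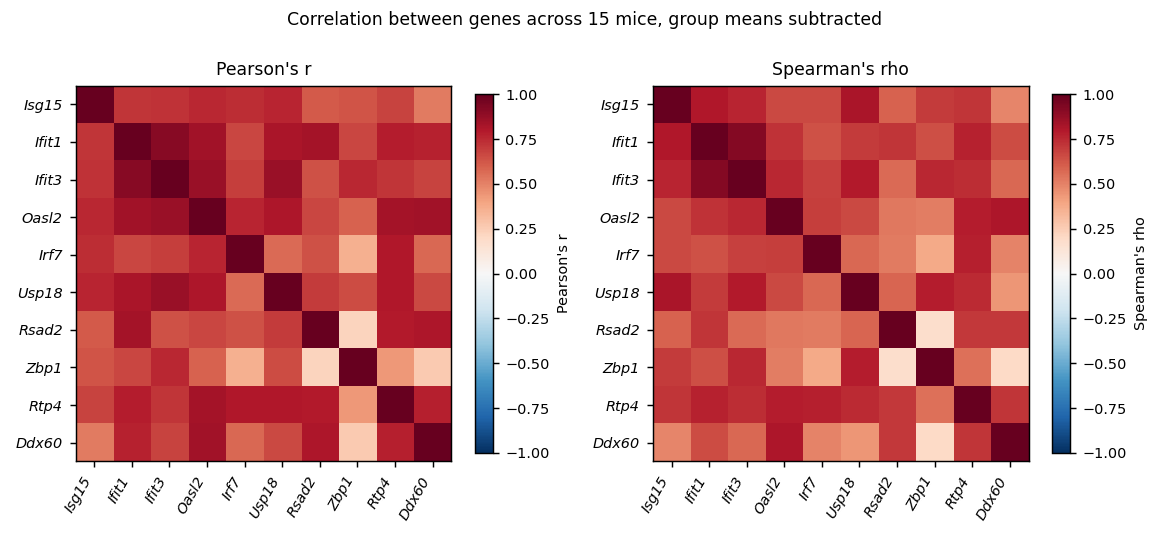
Pearson's r (left) and Spearman's rho (right) for every pair of the 10 genes across 15 mice, after group means were subtracted from log2(FPKM + 0.1), on a colour scale from -1 to 1. Both panels are positive throughout, with medians of 0.716 and 0.689, and the palest cells are pairs of Zbp1.

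Between mice of the same group the 10 genes varied more than most genes. Their SD of log2(FPKM + 0.1) within groups had a median of 0.427, from 0.247 for Irf7 to 0.571 for Ifit1, while the median over the 12429 genes that reached a mean FPKM of 1 was 0.177 and 91.8% of those genes were below the median of the 10.

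Among genes that reached a mean FPKM of 1, those whose pattern over the 15 mice was most like the mean of the 10 interferon-stimulated genes were Xaf1 (r = 0.928), Zfp57 (0.885), Herc6 (0.875), Oas1g (0.857), Oas3 (0.838), Nmi (0.834), Ifi44 (0.827), Lta4h (0.800) and Ccndbp1 (0.775). These are the highest of 12429 values and are a description with no test. Of the first 100 genes in this order, 33 were in the lists of other interferon pathway genes, where those lists make up 1.01% of the ranked genes. Zfp57, Lta4h and Ccndbp1 were in none of these lists. Zfp57 was near the limit of this ranking, with a median FPKM of 1.07. The SD of log2(FPKM + 0.1) within groups was 0.075 for Lta4h and 0.072 for Ccndbp1, against a median of 0.427 for the 10 genes. Herc6 encodes the mouse ligase that joins Isg15 to its targets, and Oas1g and Oas3 are oligoadenylate synthetases. Of the first 10 genes in this order, 5 were still among the first 10 without medium mDP PAC mouse 2.

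Other genes of the pathway were described from lists by role. Interferons themselves were scarcely seen, as 4 of the 21 ligand genes (Ifne, Ifnk, Ifnz and Ifng) were listed in any mouse. Ifng had the highest mean of the 4, 0.110 FPKM, with a highest count of 7 in a mouse, and no ligand gene passed the filter, so their levels could not be compared at this depth.

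All 6 receptor genes were expressed. Ifngr2 and Ifngr1, the interferon-gamma receptor chains, had mean FPKM of 127 and 114, Il10rb, the chain shared by type III interferon and interleukin-10 receptors, had 51.1, Ifnar2 15.3, Ifnar1 12.1 and Ifnlr1, the type III chain, 7.01. In medium mDP PAC against water 0 of the 6 were called, 5 were below 0 and 4 had an unadjusted p under 0.05 and were lower (49.5% and 10.4% of all genes), with the lowest fold change at -0.34 for Ifnlr1 (SE 0.13, edgeR adjusted p = 0.269). The other 3, named because of this p, were Ifngr2 at -0.22, Il10rb at -0.19 and Ifnar1 at -0.19. For low mDP PAC against water 5 of the 6 were also below 0 (54.5% of all genes). Of the 6, 1 had an unadjusted p under 0.05 and was lower (2.21% of all genes). None of the 6 receptors had an r over 0.5 with the mean of the 10 genes, where 2.11% of all ranked genes had. Their median r was 0.088, and that of all ranked genes was -0.014.

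Among the 8 genes that carry or damp the signal, Stat2 (mean FPKM 14.02) and Irf9 (15.1), parts of the complex that binds the response element, had r of 0.684 and 0.578. The kinases Jak1 and Jak2 had r of -0.068 and 0.273. In medium mDP PAC against water 6 of the 8 were below 0 (49.5% of all genes), 0 were called, and 2, Jak2 (-0.28) and Tyk2 (-0.21), had an unadjusted p under 0.05 and were lower (10.4% of all genes). Against water, all 8 in low mDP PAC were below 0 (54.5% of all genes), 0 of them with an unadjusted p under 0.05 (3.61% of all genes). In medium mDP PAC Stat2 had a log2 fold change of -0.27 (SE 0.14, edgeR adjusted p = 0.367).

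Of 17 listed sensors and inducers, 3 had an r over 0.5 with the mean of the 10 genes, where 2.11% of all ranked genes had. They were Ddx58 (r = 0.755), Dhx58 (0.689) and Ifih1 (0.647), the 3 RIG-I-like receptors for RNA, named because they passed 0.5. The median r of the 17 was 0.168. The adaptors Mavs (mean FPKM 26.7, r = -0.304) and Ticam1 (25.7, r = -0.178) and the kinases Tbk1 (25.2, r = 0.248) and Ikbke (24.4, r = 0.219) did not pass 0.5. In medium mDP PAC against water 14 of the 17 were below 0 (49.5% of all genes), 7 had an unadjusted p under 0.05 and were lower (10.4% of all genes), and 0 were called. All 17 in low mDP PAC against water were below 0 (54.5% of all genes), and 2 had an unadjusted p under 0.05 and were lower (2.21% of all genes).

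Of the 60 other interferon-stimulated genes in the list, 58 were listed in the files, 57 were tested and 56 were ranked for likeness, and 27 of the 56 had an r over 0.5, against 2.11% of all ranked genes. In medium mDP PAC against water 48 of the 57 were below 0 (49.5% of all genes) with a median log2 fold change of -0.24, 16 had an unadjusted p under 0.05, all of them lower, and 0 were called, where 10.4% of all genes had such a p and were lower. Of the 57, 50 in low mDP PAC against water were below 0 (54.5% of all genes) with a median of -0.17, 3 had an unadjusted p under 0.05 and were lower (2.21% of all genes), and 0 were called. Partners of Isg15 conjugation were in this list. Uba7, the activating enzyme, had group means of 18.1 ± 2.79, 15.5 ± 1.38 and 14.4 ± 2.47 FPKM (SD, n = 5 each) in water, low mDP PAC and medium mDP PAC and a log2 fold change of -0.43 (SE 0.13, edgeR adjusted p = 0.202) in medium mDP PAC. Ube2l6, the conjugating enzyme, had a log2 fold change of -0.36 (SE 0.16, edgeR adjusted p = 0.319), and Herc6 one of -0.42 (SE 0.23, edgeR adjusted p = 0.397). Oasl1, the relative of Oasl2, had one of -0.34 (SE 0.15, edgeR adjusted p = 0.301).

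The most abundant genes of that list, Lgals9 (mean FPKM 219), Ifi27l2b (172), Lgals3bp (129) and Ifitm3 (90.5), followed the 10 genes less closely in these values, with r of 0.442, 0.374, 0.417 and 0.096. Mx1, an antiviral GTPase that is defective in common laboratory strains, had an r of -0.001 and a mean FPKM of 1.47, and was named after its value was seen.

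Genes of antigen presentation by MHC class I had an r over 0.5 in 10 of 14, against 2.11% of all ranked genes. Among them were B2m (mean FPKM 1723, r = 0.618), the light chain, and the heavy chain gene H2-D1 (318, r = 0.568). H2-K1 (331) had r = 0.431 and the proteasome activator Psme2 (164) r = 0.541. Of the genes that respond to interferon-gamma, 11 of 25 ranked had an r over 0.5 (2.11% of all ranked genes). Among them were the immunity-related GTPases Irgm1 (mean FPKM 19.7, r = 0.593) and Ifi47 (15.4, r = 0.666). The transcription factors Irf1 (59.1, r = 0.185) and Irf8 (33.9, r = 0.117) were not. In low mDP PAC against water 14 of 14 MHC class I genes and 24 of 26 tested interferon-gamma genes were below 0 (54.5% of all genes), and in medium mDP PAC against water 12 and 23 were (49.5% of all genes). In medium against low mDP PAC, 2 of the 14 and 6 of the 26 were below 0 (48.6% of all genes). With an unadjusted p under 0.05, 3 of the 14 and 1 of the 26 were lower in low mDP PAC against water (2.21% of all genes). In medium mDP PAC against water 1 and 2 were (10.4% of all genes), and in medium against low mDP PAC 0 of either list (2.05% of all genes). None of the tested genes of these lists was called in any of the 3 comparisons. Of all genes, 0.0139% were called in medium mDP PAC against water and 0% in the other comparisons.

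**Figure D5:**
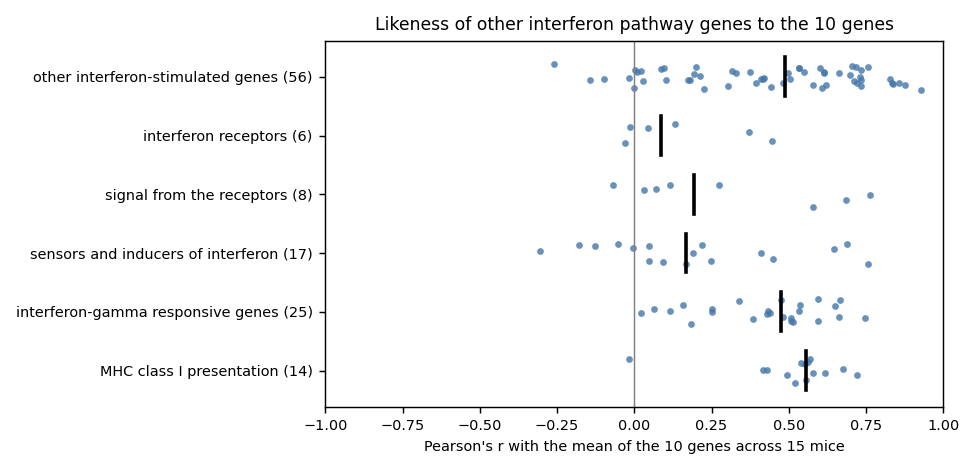
Pearson's r across the 15 mice between each gene of 6 interferon pathway lists and the mean of the 10 genes, from log2(FPKM + 0.1) with group means subtracted, with a point per gene, a black bar at the median of a list and the number of genes in brackets. The medians are 0.554 for MHC class I presentation, 0.488 for other interferon-stimulated genes and 0.474 for interferon-gamma responsive genes, and 0.088 for the receptors.

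Marker genes of other cell types differed between the pieces of tissue. All 5 smooth muscle markers were listed, and their FPKM summed to between 208 and 737 in water, 449 and 802 in low mDP PAC and 541 and 887 in medium mDP PAC, with water mice 3 and 1 at the lowest sums, 208 and 241. The smooth muscle score had r = -0.504 and rho = -0.532 with the mean of the 10 genes, and r = 0.096 without those 2 mice. They were chosen as farthest from the median of this score and were also high for the 10 genes. Leaving them out therefore narrows both ranges and weakens the relation by construction. The 5 Paneth cell markers summed to between 10900 and 24122 in water, 17250 and 25081 in low mDP PAC and 20758 and 31189 in medium mDP PAC, with r = -0.488 and r = -0.282 without the 2 mice that lay farthest from its median. The 10 B cell markers, whose sum went from 6.66 to 260 over the mice, had r = 0.011. Medium mDP PAC mouse 2, high for the 10 genes, held the lowest B cell sum of 6.66.

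The 6 genes taken as markers of plasmacytoid dendritic cells, a cell type that produces type I interferon, had r = -0.138. Their FPKM summed to between 92.6 and 186 over the mice, and whether they come from this cell type in the ileum was not tested. The mesothelium score had r = -0.427, and 0.166 without water mice 1 and 3, and the scores of T cells, macrophages, enterocytes, endothelium and red blood cells had r between 0.196 and 0.322, of which that of endothelium, 0.196, became 0.567 without medium mDP PAC mice 3 and 5. No listed marker was at 0 in all mice. The total expected count had r = 0.169 and the FPKM sum r = -0.351 with the mean of the 10 genes. These correlations over 15 mice are descriptions, and the part of cell composition in the levels of the 10 genes was not tested.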

How the data were processed

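RNA from the ileum of 15 mice was sequenced by the authors in paired ends on a BGISEQ-500. Their methods name SOAPnuke for read cleaning and Bowtie2 for mapping to mm10, while the submitters' processing notes name HISAT, DESeq2 and mm10, and the counting tool is not given in the sources used here. For each mouse the authors deposited expected counts per gene, which are not normalized, and FPKM with 2 decimals. Genes absent from a file were given 0.

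Expected counts were rounded and fitted with edgeR 4.0.16 (TMM, filterByExpr, quasi-likelihood) in R 4.3.3. Alternatives were upper-quartile scaling, DESeq2 1.42.0, no filter, limma 3.58.1 on log2(FPKM + 0.1) and log2(FPKM + 1), the 2 groups alone, a replicate block and leaving out each mouse. NOISeq, which the authors used, gives no error for a fold change and was not run. The methods were checked on simulated data. Permutation tests were two-sided, with all 252 splits for group differences and 100000 permutations for correlations. Named genes outside the 10 were the 10 most like them, and in each list the most abundant and the partners of the 10, and 1 gene that this rule names is not reported here. Coordinates are from GENCODE and promoters from RefSeq. The genes and lists were chosen with earlier results of these data known.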

Additional observations from a re-analysis of the deposited data

Results flagged for a closer look

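Medium mDP PAC mouse 2 stood far from the other 4 mice of its group for 2 of the 10 genes. For Ifit3 its FPKM of 8.89 was followed by 4.57 in the next mouse, and the gap made up 0.749 of the range of log2(FPKM + 0.1) in the group. For Oasl2 it had 34.6 FPKM against 20.5 in the next mouse, a gap of 0.723 of the range. Dixon's 95% critical value for 5 mice is 0.71, and chance exceeds it in about 1 in 20 groups, while 2 of the 30 groups tested here did. The values of this mouse are part of all group means given above, and its B cell marker sum was the lowest of the 15 mice.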

How the results depend on the processing

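Under each of the 22 other settings, the number of the 10 genes called stayed at 0 in all 3 comparisons, and the smallest adjusted p was 0.158 (Oasl2 in medium mDP PAC against water without medium mDP PAC mouse 2). All 220 refitted log2 fold changes of medium mDP PAC against water stayed below 0. Their median ran from -0.57 without medium mDP PAC mouse 2 to -0.16 without water mouse 3, and was -0.24 with upper-quartile scaling, which moved the median of all genes from 0.002 to 0.066. In this comparison Rsad2 ran from -0.37 without medium mDP PAC mouse 2 to -0.08 without water mouse 1. Irf7 ran from -0.39 without water mouse 2 to -0.13 without water mouse 1. The count with an unadjusted p under 0.05, 1 by edgeR, was 2 with DESeq2, 0 with upper-quartile scaling, both limma fits, the 2 groups alone or the block, and 0 to 4 without single mice (4 without water mouse 2 or medium mDP PAC mouse 2, 3 without water mouse 5, 2 without low mDP PAC mouse 1). In low mDP PAC against water it was 2 without water mouse 2 and 1 without low mDP PAC mouse 1, and in medium against low mDP PAC it was 1 without medium mDP PAC mouse 2, each against 0 with all mice.

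Signs turned in 20 of 660 refitted values, and the cause was not tested. In low mDP PAC against water, Rsad2 became -0.02 with the replicate block and ran from -0.22 to 0.17 without single mice (below 0 without water mouse 2, 4 or 5 or low mDP PAC mouse 1 or 5), and Ifit1 ran from -0.43 to 0.06 (without water mouse 3). In medium against low mDP PAC, the ranges without single mice were -0.42 to 0.10 for Ifit1 (above 0 without low mouse 1 or medium mouse 5), -0.38 to 0.04 for Ifit3 (low mouse 1, medium mouse 3, 4 or 5), -0.22 to 0.09 for Rtp4 (low mouse 1), -0.38 to 0.03 for Ddx60 (low mouse 1, medium mouse 3), -0.31 to 0.07 for Zbp1 (low mouse 2, medium mouse 5), -0.15 to 0.22 for Isg15 and -0.03 to 0.49 for Usp18 (both below 0 without medium mouse 2).

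Mouse numbers recur in the 3 groups, but same-numbered mice correlated between -0.307 and 0.445 in their deviations from the group means, and 2, 3 and 0 of 10 mice correlated best with their own number in the 3 comparisons, so the numbers were not taken as pairs. With the replicate block the median log2 fold change of the 10 genes was -0.33 for medium mDP PAC against water, -0.24 for low mDP PAC against water and -0.10 for medium against low. The median correlation of 0.716 was between 0.659 and 0.760 without single mice and 0.341 in the 11 mice below the widest gap in the mean of the same 10 genes, a setting chosen after seeing the data that narrows the range of that mean by construction and so lowers r. Of the 10 most alike genes, 5 to 9 stayed without single mice (5 without medium mDP PAC mouse 2) and 1 in the 11 mice. Counts were lowest for Usp18 and Isg15 (from 39 and 54 per mouse), where counting error is largest.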
